A study of Mus musculus with 2 samples.

Results

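Mir221 and Mir222 are a pair of neighbouring microRNA (miRNA) genes on the X chromosome whose main products share a seed, the bases by which an miRNA recognises its targets. They were chosen by name, from reports that the cluster falls when myoblasts differentiate, and make up 2 of the 2202 miRNA genes in the tables. Both were found by their Ensembl identifiers, ENSMUSG00000065422.1 for Mir221 and ENSMUSG00000065471.1 for Mir222, and both had reads in both libraries. The libraries are small RNA sequencing of myotubes, the multinucleated fibres that form when myoblasts fuse, made by differentiating C2C12 cells for 72 hours. C2C12 is an established mouse myoblast line, which the labels trace to injured thigh muscle of C3H mice. The series is 1 group of 2 libraries, labelled as biological replicates from separate biosamples of the same line, with no treatment. Neither an undifferentiated culture nor another time point is among the samples used here, so the levels below are those of 1 stage and carry no measure of a fall.

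miRNAs are cut from hairpin transcripts, and a short mature strand is loaded into an Argonaute protein, which it guides to messenger RNAs that hold a match to its seed. Mir221 and Mir222 are made from a common primary transcript and are best known for repressing Cdkn1b, which encodes the cyclin-dependent kinase inhibitor p27 and holds cells out of the cell cycle. They are abundant in endothelium, vascular smooth muscle and proliferating cells, and in skeletal muscle they have been reported as high in cycling myoblasts and lower in myotubes, where p27 accumulates.

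On GRCm38 (mm10), Mir221 lies on the minus strand at chrX:19146294-19146388 and Mir222 on the same strand at chrX:19146893-19146971. The hairpins are separated by 504 bases, and Mir222 comes first in the direction of transcription. Neither overlaps any other gene of the GENCODE M21 annotation, coding or non-coding, so both are intergenic in it. The nearest annotated gene upstream is the non-coding transcript Gm14636, on the same strand and 10009 bases away. The nearest downstream is the pseudogene Gm5383, 203065 bases away on the other strand. The hairpins below are from RefSeq (GRCm38.p6), equal to the GENCODE M21 transcripts, and are shown because the counts are of reads anywhere in them. Capitals mark the mature arms that the RefSeq table lists.
Mir221 hairpin: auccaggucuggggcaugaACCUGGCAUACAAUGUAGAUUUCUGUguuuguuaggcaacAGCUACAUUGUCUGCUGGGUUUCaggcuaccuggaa
Mir222 hairpin: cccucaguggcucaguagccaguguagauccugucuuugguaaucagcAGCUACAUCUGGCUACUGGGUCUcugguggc

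**Figure D1:**
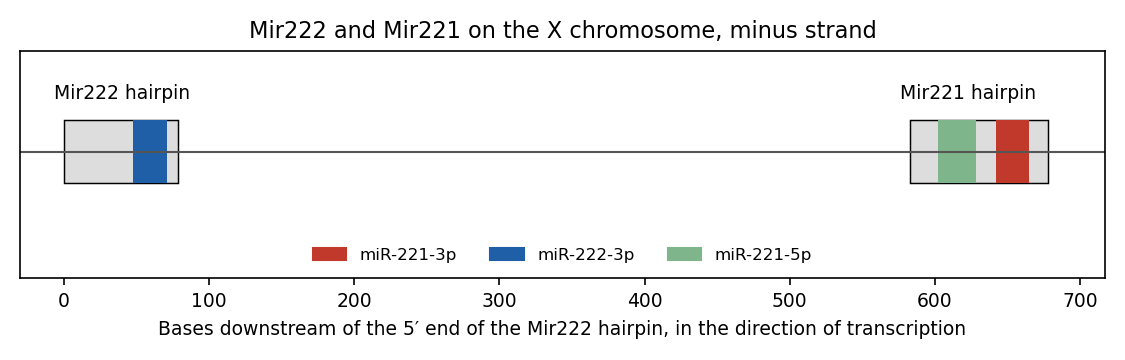
Positions of the Mir222 and Mir221 hairpins (grey boxes) and of their mature arms (coloured boxes), in bases from the 5′ end of the Mir222 hairpin. The hairpins are 79 and 95 bases long and 504 bases apart.

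The mature strands show what the pair has in common and where it differs. Capitals mark the seed, bases 2 to 8 from the 5′ end. miR-1928 is included because it is the only other mouse miRNA of the RefSeq table with this seed.
miR-221-3p: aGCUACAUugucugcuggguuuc
miR-222-3p: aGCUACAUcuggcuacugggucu
miR-1928: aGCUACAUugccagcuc
miR-221-5p: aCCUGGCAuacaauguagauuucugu
The 3p strands of Mir221 and Mir222 are both 23 bases long and identical over their first 8 bases, seed included. They first differ at base 9, and with no gap 11 of the 23 positions are identical. The 5p strand of Mir221 has another seed. Mir1928, on chromosome 1, had 0 reads in both libraries, which allows up to 0.396 CPM (counts-per-million, defined below) in replicate 1 and 0.304 CPM in replicate 2 (a limit of 3 reads). All reads found at a gene with this seed were therefore at Mir221 or Mir222.

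The reads of the pair were not easily confused with each other or with those of other miRNAs. The longest exact run shared by the Mir221 and Mir222 hairpins is 9 bases. Against the other annotated miRNA hairpins, on either strand, it is 13 bases for Mir221 and 12 bases for Mir222, both shorter than a mature strand. Every read counted at either gene was on the gene's own strand, with 0 reads on the opposite strand in both libraries. The files give 1 count per gene, so the 5p and 3p strands of a hairpin could not be told apart.

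Both members were in the upper part of the miRNA genes with a read in the myotubes, with Mir221 well above Mir222. Mir221 had 29684 reads in replicate 1 and 18684 in replicate 2. CPM scales a count by the total of reads assigned to miRNA genes on their own strand. On this scale Mir221 was at 3915 in replicate 1 (95% exact Clopper-Pearson interval 3871 to 3960.1) and 1894 in replicate 2 (1867 to 1921), with a mean of 2905 ± 1429 (SD, n = 2). Replicate 1 was the higher library, and the intervals, which cover the counting error of reads only, were far apart. Mir222 had 3798 reads in replicate 1 and 4315 in replicate 2. This was 501 CPM in replicate 1 (485 to 517) and 437 CPM in replicate 2 (424 to 451), with a mean of 469 ± 45.0 (SD, n = 2). For Mir222 the libraries lay close together, and its coefficient of variation was 9.58% against 49.2% for Mir221. The lower Mir221 library was above the higher Mir222 library, so the genes did not overlap.

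**Figure D2:**
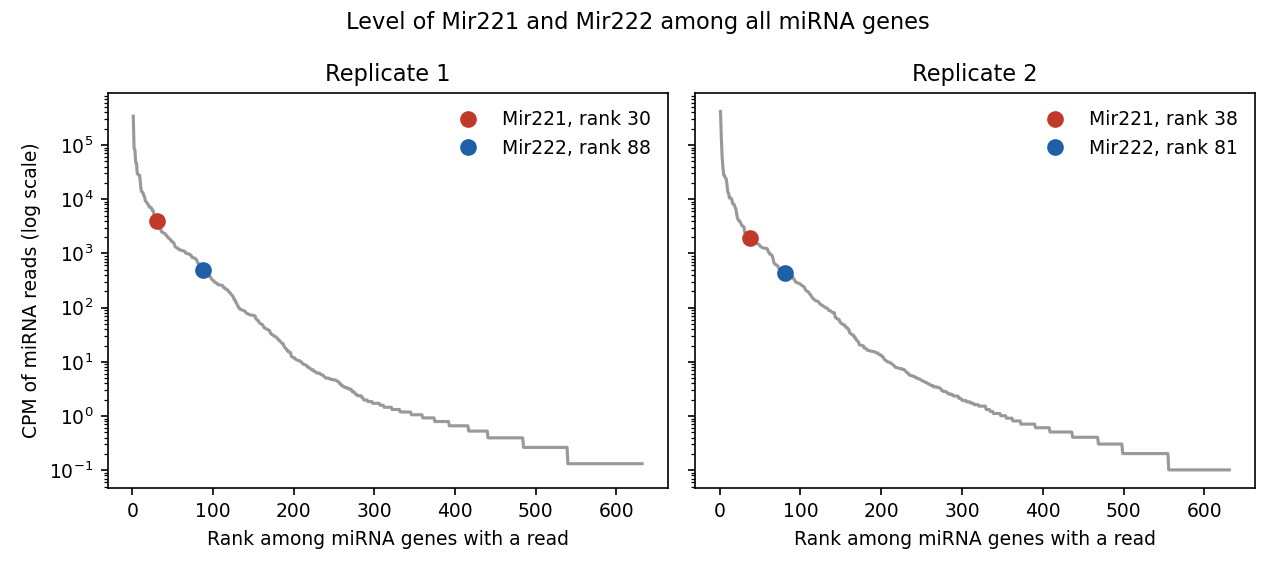
CPM (log axis) of every miRNA gene with a read, in order of abundance, for each library. Mir221 held rank 30 in replicate 1 and rank 38 in replicate 2, and Mir222 ranks 88 and 81.

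By mean CPM Mir221 was the gene of rank 33 and Mir222 that of rank 87, of 708 genes with a read in either library. Directly above Mir221 stood Mir24-2, Mir191 and Mirlet7g, and directly below it Mir214, Mir30e and Mir27a, with means from 3046 CPM for Mir24-2 to 2580 CPM for Mir27a. Directly above Mir222 stood Mir107, Mir181a-1 and Mir499, and below it Mir155, Mir139 and Mir152, from 499.8 CPM for Mir107 to 456 CPM for Mir152. For both members, all 6 of these neighbours had ranges between the libraries that overlapped the member's own, so the order among them was not resolved. In all, 23 genes lay above the Mir221 range in both libraries and 23 overlapped it. For Mir222, 72 genes lay above and 20 overlapped.

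Together the pair accounted for 0.442% of the miRNA reads of replicate 1 (95% exact interval 0.437% to 0.446%) and 0.233% of those of replicate 2 (0.230% to 0.236%), or 0.337% ± 0.147 (SD, n = 2). All miRNA genes of the X chromosome, 29 of 142 of which reached 2 CPM in both libraries, took 6.22% and 4.33% of miRNA reads, and the pair was 7.10% and 5.38% of that. On this chromosome Mir221 was number 5 by mean CPM. It followed Mir322 and Mir351 of the myogenic Mir322-Mir503 cluster, and Mir532 and Mir188, which neighbour each other. Mir222 was number 14.

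The next question was how evenly the replicates carried the pair. Scaled by trimmed mean of M-values (TMM) factors, the level of Mir221 in replicate 1 was 2.02 times that in replicate 2 (95% interval of counting error 1.99 to 2.06), a log2 difference of 1.02. Mir222 was 1.12-fold higher in replicate 1 (1.07 to 1.17), a log2 difference of 0.17 with an adjusted p of 7.7e-07 (exact two-sided binomial test, Benjamini-Hochberg over all genes tested). The adjusted p of Mir221 was below the range of the software and is not printed. For both members the gap between the libraries was therefore larger than counting error, in the same direction. This is common in these data. Of 415 genes tested, 231 (55.7%) were called. Replicate 1 was the higher library for 126 of them (30.4% of the genes tested) and replicate 2 for 105 (25.3%). The test compares these libraries, not conditions.

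Set beside the spread of all genes, the 2 members were unlike. The absolute log2 difference had a median of 0.61 over the 415 genes tested, with quartiles of 0.28 and 1.07. Mir221 exceeded 302 of those genes (72.8%) and Mir222 exceeded 57 (13.7%). Among the 152 genes with 1000 or more reads, where counting error is small, Mir221 exceeded 120 and Mir222 exceeded 22. Mir221 was therefore in the upper part of the ordinary spread between the libraries and Mir222 in the lower part.

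**Figure D3:**
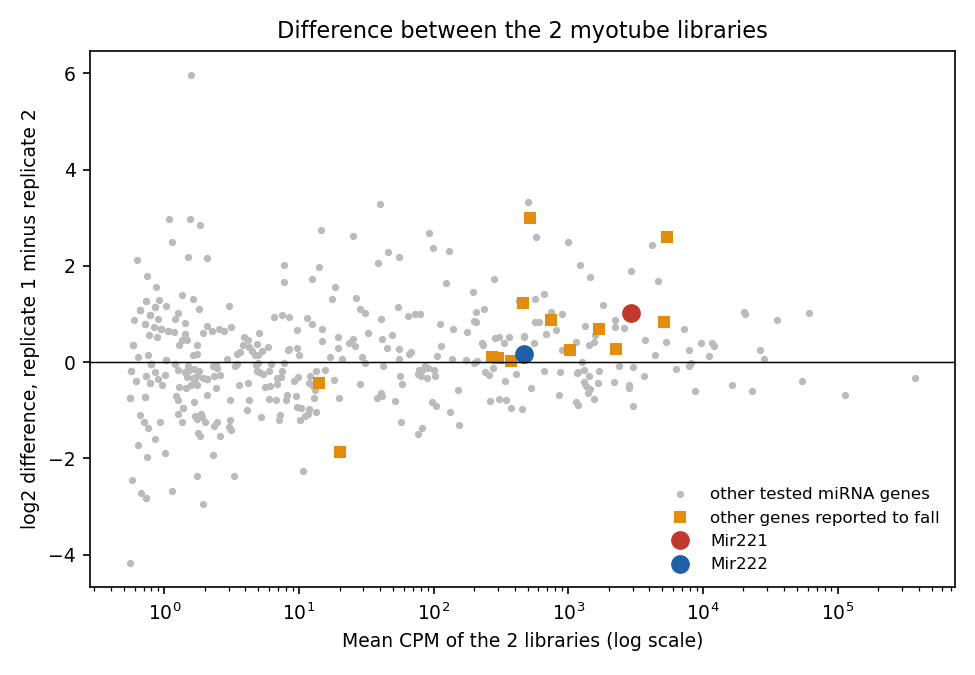
Log2 difference between the libraries (replicate 1 minus replicate 2) against mean CPM (log axis) for the 415 tested miRNA genes. Mir221 (red) is at 1.02 and Mir222 (blue) at 0.17, and orange squares are the other 13 genes of the list reported to fall.

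The balance between the members changed with the library. Mir221 had 7.82 times the reads of Mir222 in replicate 1, a log2 ratio of 2.97 (95% exact interval 2.92 to 3.02), and 4.33 times in replicate 2, a log2 ratio of 2.11 (2.07 to 2.16). Mir221 made up 88.7% of the reads of the pair in replicate 1 and 81.2% in replicate 2. In both libraries Mir221 was the larger share by a wide margin, and the shares did not agree within counting error. The ratio of Mir221 to Mir222 was 1.81 times as high in replicate 1 as in replicate 2 (95% interval of the odds ratio 1.72 to 1.89, Fisher's exact test on the reads, two-sided p = 2.08e-132). This ratio is taken within a library and does not depend on how libraries are scaled. With 2 libraries a two-sided paired permutation test cannot go below p = 0.5, so the direction of the ratio itself was not tested.

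Other miRNA genes that sit side by side, and can share a transcript, gave a scale for this ratio. There were 40 pairs of neighbours on the same strand with at most 1000 bases between them and 10 or more reads per gene in each library, the pair of Mir221 and Mir222 included. Some genes enter more than 1 pair. With the gene of more reads set on top, the mean log2 ratio ran from 0.02 for Mir125a with Mirlet7e to 9.70 for Mir29a with Mir29b-1, with a median of 2.67. Mir221 and Mir222, at 2.54 ± 0.60 (SD, n = 2), ranked 22 of 40, near the middle. After Mir29a with Mir29b-1, the most uneven pairs were Mirlet7b with Mirlet7c-2 at 8.69 and Mir99a with Mirlet7c-1 at 8.53. The smallest means, beside that of Mir125a with Mirlet7e, were those of Mir96 with Mir183 at 0.09 and Mir501 with Mir362 at 0.10. Each of these pairs changed direction between the libraries, so opposite ratios cancel in the mean. Mir125a with Mirlet7e, for example, stood at -0.56 in replicate 1 and 0.61 in replicate 2. Mir15b with Mir16-2, a cell-cycle pair, stood at 0.70. Mir143 with Mir145a, a smooth muscle pair with a wider gap that is not among the 40, stood at 3.96. In 33 of the 40 pairs, Mir221 and Mir222 among them, the same gene was higher in both libraries.

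Multimapping reads are not in the gene counts, which touches some of these pairs. In 23 of the 40 pairs at least 1 hairpin shares an exact run of 20 bases with another annotated miRNA hairpin. This holds for 7 of the 10 pairs with the largest mean ratios and 5 of the 10 with the smallest. Among the 17 pairs without such a run, a selection made after the ratios had been seen, Mir221 and Mir222 ranked 10, and the median log2 ratio was 2.55. The change of the ratio between the libraries was 0.85 on the log2 scale for Mir221 and Mir222 and ranked 19 of 40. Over all 40 pairs it ran from 0.04 for Mir17 with Mir18 to 4.86 for Mir20a with Mir19b-1, with a median of 0.63.

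**Figure D4:**
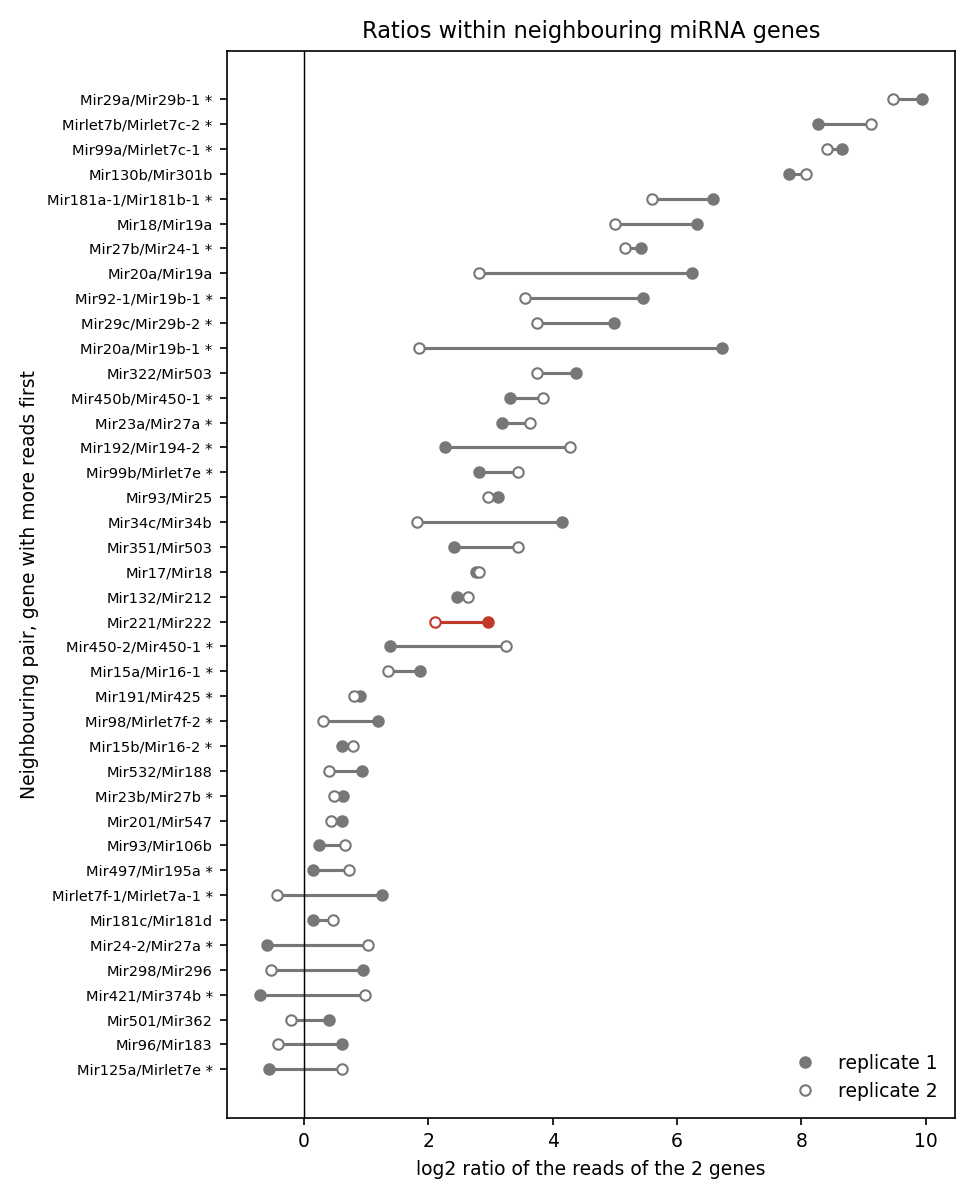
Log2 ratio of reads within each of 40 neighbouring pairs in replicate 1 (filled) and replicate 2 (open), sorted by the mean, with an asterisk where a hairpin shares a run of 20 bases with another. Mir221/Mir222 (red) stands at 2.97 and 2.11, at rank 22.

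The genes with the most similar levels were sought by the distance of log2(CPM + 1) over the 2 libraries. Nearest to Mir221 was Mir27a at a distance of 0.28, with 3220.0 CPM in replicate 1 and 1939 CPM in replicate 2, followed by Mirlet7d (0.51), Mir28a (0.52), Mir93 (0.67) and Mirlet7g (0.68). All 5 were, like Mir221, higher in replicate 1, which genes picked for similar levels in both libraries will tend to be. Nearest to Mir222 was Mir139 at a distance of 0.09, with 471 and 446 CPM, followed by Mir181a-1 (0.26), Mir499 (0.27), Mir183 (0.37) and Mir185 (0.40). Mir139 did not pass the test between the libraries, and Mir185 was higher in replicate 2. With 2 libraries such a distance measures little more than the level.

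Mir221 and Mir222 were set beside 13 other miRNA genes reported to fall in myoblast differentiation, among them the Mir17 cluster, which promotes proliferation, Mir125b, Mir31 and Mir155. All 15 genes of the list reached 2 CPM in both libraries. By mean CPM the most abundant were Mir31 at 5419 ± 5545 CPM, Mir17 at 5138 ± 2102 CPM, Mir221 and Mir93 at 2251 ± 324 CPM (SD, n = 2). Mir221 was number 3 of the 15 and Mir222 number 9, just ahead of Mir155 at 461 ± 268 CPM (SD, n = 2). This order changed with the library. In replicate 2 Mir93 was above Mir221 (2022 against 1894 CPM), and in replicate 1 Mir155 was above Mir222 (651 against 501 CPM). The median of the list was 923 CPM in replicate 1 and 437 CPM in replicate 2.

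Of these 15 genes, 12 were called higher in replicate 1, 2 were called higher in replicate 2 and 1, Mir92-1, was not called, against 30.4% and 25.3% of all genes tested. Without the pair, the counts were 10, 2 and 1 of 13. Several genes of the list are neighbours that can share a transcript, such as Mir17 with Mir18 and Mir93 with Mir106b. The counts are therefore not of independent genes. The median log2 difference of the 15 was 0.26, against 0.02 over all 415 genes. The list is abundant, with 1000 or more reads for 13 of its 15 genes, and abundant genes in general leaned the same way. Of the 152 tested genes with 1000 or more reads, 53.9% were called higher in replicate 1 and 37.5% in the other library. Their median log2 difference was 0.17. Mir20a at 2.99, Mir31 at 2.61 and Mir155 at 1.23 moved further than Mir221, while Mir19b-1 at -1.87 and Mir19a at -0.44 were higher in replicate 2. The genes Mir19b-1, Mir92-1, Mir125b-1 and Mir125b-2 have copies of the same mature strand elsewhere, so multimapping reads of theirs are missing from the counts.

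Of 23 genes reported to rise in differentiation, 10 were called higher in replicate 1, 7 were called higher in replicate 2 and 6 were not called. Over all 415 genes tested, 30.4% and 25.3% were called in these directions. Over the 152 tested genes with 1000 or more reads the shares were 53.9% and 37.5%, and this list holds genes above and below that count. The median log2 difference of the 23 was 0.04, against 0.02 over all 415 genes. The list holds copies of Mir1a, Mir133a, Mir24, Mir26a, Mir29b and Mir181a, so multimapping reads of theirs are missing from the counts. Mir206, the skeletal muscle miRNA that leads both libraries, had 77.2 times the reads of Mir221 and Mir222 together in replicate 1 and 179 times in replicate 2. Mir378a, hosted by Ppargc1b, stood at 112998 ± 36038 CPM (SD, n = 2) and had 19.8 and 59.4 times the reads of the pair. Mir133b, the neighbour of Mir206, had 3.08 and 4.53 times. Mir322, at 20298 ± 10297 CPM (SD, n = 2), had 6.24 and 5.58 times. Relative to Mir206, Mir378a and Mir133b the summed reads of the pair, mostly those of Mir221, were lower in replicate 2 than in replicate 1. Relative to Mir322 the sum was slightly higher. Mir222 alone, with a log2 difference of 0.17, was higher in replicate 2 relative to Mir133b (0.33) and to Mir322 (1.05). Whether the libraries differed in their extent of differentiation was not tested.

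Markers of other cell types were read too, and some of them differed between the libraries. Both libraries are of 1 myoblast line, so reads of these genes do not show that such cells were present. Both endothelial markers had reads: Mir126a had 217 CPM in replicate 1 and 42.9 CPM in replicate 2, and Mir126b had 1.85 and 1.62 CPM. Mir126a was called higher in replicate 1, and Mir126b was not called. The sum of both was small. The 2 together took 0.0219% and 0.00445% of miRNA reads. Of 7 markers of fibroblasts and smooth muscle, 6 reached 2 CPM in both libraries and Mir10b was at 0 in both, and their sum was 13.1% of the miRNA reads of replicate 1 and 6.68% of those of replicate 2, most of it Mir21a and Mir143. These markers did not move together. The test called 4 higher in replicate 1, Mir21a and Mir143 among them. It called 2 higher in replicate 2, which were Mir145a with a log2 difference of -0.42 and Mir199a-1 at -1.12. Over all 415 genes tested, 30.4% and 25.3% were called in these directions. Mir199a-1 has a copy, Mir199a-2, so multimapping reads of both are missing from the counts. Mir143 had 10.5 times the reads of the pair in replicate 1 and 10.6 in replicate 2, and Mir21a had 18.6 and 16.9 times, whereas Mir145a had 0.430 and 1.07 times. Of 5 blood markers, 2 reached 2 CPM in both libraries, none was at 0 in both, and their sum was 0.0105% and 0.0183%. Most of this sum was Mir142, at 89.0 and 178 CPM. The blood markers did not move together either. Mir142 and Mir150 were called higher in replicate 2, and Mir451a and Mir144 in replicate 1, against 25.3% and 30.4% of all genes tested. Mir223 had too few reads to be tested. Of 8 muscle markers, 5 reached 2 CPM in both libraries, none was at 0, and their sum, nearly all Mir206, was 35.5% and 42.8%. The lowest were Mir1a-1, Mir1a-2, Mir133a-1 and Mir133a-2, at 1.01 to 4.22 CPM. These are copies of Mir1a and Mir133a, so multimapping reads of theirs are missing and their levels are lower limits. Whether the difference of Mir221 is linked to that of any marker was not tested.

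The seed of the pair was then looked up in its best-known target. The letters searched were ATGTAGC, the complement of bases 2 to 8, and TGTAGCA, the complement of bases 2 to 7 followed by A, on the transcript strand of the longest annotated 3′ UTR of each gene. The motifs overlap by 6 bases and an overlapping match was counted as 1 site. Cdkn1b, on chromosome 6, had 3 such sites within a short stretch of its 3439-base 3′ UTR (GENCODE M21, plus strand). They are printed with flanking bases, as DNA, with the match in capitals.
Cdkn1b at chr6:134924416-134924440: ctctaaaagcattggATGTAGCAtt
Cdkn1b at chr6:134924492-134924516: tttttatcttttactcTGTAGCAca
Cdkn1b at chr6:134924571-134924595: agaacttgcttcaattTGTAGCAag
The first site holds both motifs and so matches 8 bases, and the other two hold TGTAGCA alone. A match is frequent in a window of this length: 38.1% of 2090 genes with a 3′ UTR at least as long held 1 or more in their first 3439 bases. Of 9 reported targets searched, 8 held a site. Targets may have been reported because they hold such a match, so this count tests nothing. Of all 20774 longest 3′ UTRs, 15.7% held a site, but their median length is 967 bases and most of the 9 are longer. The share for windows of its own length is therefore given for each gene with a site. Foxo3 and Pik3r1 are among the 8 only through TGTAGCA, the motif added after values had been seen. Kit, the stem cell factor receptor, held 2 sites in 2177 bases, where 25.7% of windows of that length held any. Cdkn1c, which encodes the related inhibitor p57, held 1 in 688 bases (8.14% of windows), and Bbc3, which encodes the cell death protein Puma, held 1 in 971 bases (11.9%). Timp3 and Pik3r1 held 2 each and Foxo3 and Bmf 1 each, where 39.6%, 45.1%, 46.2% and 41.8% of windows of their lengths held any. Sntb1 held none, which says only that these letters are not in its annotated 3′ UTR. No messenger RNA was measured in these libraries, so these matches carry no value of repression.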

How the data were processed

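Small RNA of 72 hour C2C12 myotubes was read from 2 deposited tables of raw read counts, which the authors made per miRNA gene on mm10 with annotation M21, per the text they deposited beside the tables. Which aligner, counter, trimming and filters were used is not given in the sources used here. Reads were taken from the column of the gene's own strand. CPM used 7581366 such reads over gene lines in replicate 1 and 9865298 in replicate 2. Lines that name no gene stayed out of the totals: unmapped reads were 22.7% and 23.1%, multimapping reads 22.0% and 17.9% and reads outside the genes 5.88% and 5.57% of all reads. Intervals and limits cover counting error only, and no molecular identifiers are mentioned.

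The libraries were compared gene by gene with exact binomial tests (two-sided) and TMM factors from edgeR 4.0.16 (R 4.3.3). P-values were adjusted by Benjamini-Hochberg over the genes that had at least 10 reads in the libraries together, at a threshold of 0.05. The quasi-likelihood test of edgeR needs a contrast, which the series lacks. Log2 differences and ratios used a pseudocount of 0.5 reads. The labels name separate biosamples of 1 line. The p-values cover the counting error of reads in 1 library against another and hold no estimate of the spread between samples. On simulated data for this comparison, with counting error only and 417 genes tested, 60.8% of genes changed 1.5-fold, 67.3% of genes changed 2-fold and 0.901% of unchanged genes were called. Other tools were Python 3.11.15, scipy 1.17.1 and pandas 2.3.3, and DESeq2 1.42.0 size factors as an alternative.

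The named genes were the members, genes with their seed, the 3 nearest in rank on each side and the 5 nearest in level. Also named were the 4 most abundant members of the lists reported to fall and to rise. The neighbouring pairs named were those with the 3 largest and 3 smallest mean ratios, besides 2 preset pairs. Members and lists were chosen with earlier results of these data known. Mir20a, Mir155, Mir19a, Mir19b-1 and Mir92-1 were named after their values were seen, as was the second seed motif. An entry of the preset target list is not reported here.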

Additional observations from a re-analysis of the deposited data

How the results depend on the processing

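Of 31 alternative values that leave out no library, 24 kept their direction and lay within the spread or on the same side of the threshold, and 7 levels moved with the count or denominator used. Mir221 was at 1473 CPM with all reads as the denominator and at 4594 CPM without Mir206. Mir222 was at 241 CPM and 755 CPM under the same settings. In the count that ignores strand, which drops reads where genes overlap on both strands, Mir222 was at 535 CPM. Mir221 rose there too, to 3285 CPM, and the share of the pair to 0.382%, both within their wider spread. The reads of both members were the same in that count, so only the denominator differed. The share of the pair was 0.171% of all reads and 0.535% without Mir206. With 2 libraries, leaving 1 out only returns the value of the other and says nothing of stability. So left, Mir221 ran from 1894 to 3915 CPM, Mir222 from 437 to 501 CPM and the log2 ratio from 2.11 to 2.97, and the share of the pair from 0.233% to 0.442%. The log2 difference between the libraries stayed within 0.99 to 1.05 for Mir221 and 0.14 to 0.20 for Mir222, whose adjusted p (exact binomial test) ran from 3.5e-09 to 4.6e-05 over the alternatives. With genes of any count 221 of 708 genes were called, and with 100 or more reads 205 of 240. Of the other neighbouring pairs, 46.2% had a smaller ratio than Mir221 and Mir222, and 38.7% to 59.3% under other distances, read filters and counts. No paired analysis was possible because the series has 1 group. The precision of the levels is limited by the 2 libraries and not by depth.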
